A study of Mus musculus with 4 samples.

Results

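The 8 genes described here belong to the CXC chemokine system that draws neutrophils, and they were measured in mouse synovium, the tissue that lines the joint. They are the ligand genes Cxcl1, Cxcl2, Cxcl3, Cxcl5, Ppbp and Pf4 and the receptor genes Cxcr1 and Cxcr2, chosen by name from a rule that sets no threshold on their values. All 8 were on the array among 22180 genes, each with a single probe set. The arthritic group held 2 pools of synovium from day 10, labelled as peak inflammation, with 10 mice in each pool. The nonarthritic group held 2 pools, with 3 mice in each, labelled day 0. All mice were male C57BL/6J aged 12 weeks, and the synovium came from around the ankle (tibiotalar) joint. Per the labels' protocols, arthritic mice were given 150 µl of serum that transfers arthritis into the peritoneum on days 0, 2 and 7, and nonarthritic mice were given saline on the same days. The labels name K/BxN, a strain with autoantibodies that attack joints, as the serum source of all 4 pools, which conflicts with the saline. Disease, labelled day and pool size differ together between the groups, so their effects cannot be told apart, and each p measures the spread between pools and not between mice.

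CXC chemokines are small secreted proteins that guide leukocytes. Those that carry a glutamate-leucine-arginine (ELR) motif before their first cysteine, among them Cxcl1, Cxcl2, Cxcl3, Cxcl5 and the processed form of Ppbp, act on the receptor CXCR2 and draw neutrophils out of the blood. Pf4, platelet factor 4, has the CXC fold without that motif. In mice given K/BxN serum, neutrophils are known to use Cxcr2 to enter the joint.

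Of the 8 genes, 5 rose in arthritic synovium (Cxcl1, Cxcl2, Cxcl3, Cxcl5 and Cxcr2), Pf4 fell, and Ppbp and Cxcr1 did not pass (limma, Benjamini-Hochberg adjusted p under 0.05 over all genes). Over all 22180 genes the same test called 15.3%, with 8.72% rising and 6.62% falling. The median log2 fold change, arthritic minus nonarthritic, was 1.43 over the 8 genes and 0.005 over all genes. Both arthritic pools read above both nonarthritic pools for 6 of the 8 genes, as for 30.2% of all genes, and below them for Pf4, as for 26.1% of all genes. Ppbp was the 1 gene of the 8 whose groups overlapped. With 2 pools a group, an exact permutation test of 1 gene cannot give a p below 0.333, so the adjusted p-values lean on the spread pooled over all genes. With 1 pool left out, fewer of all genes were called in every such fit. A call lost there need not be particular to the gene or list described.

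**Figure D1:**
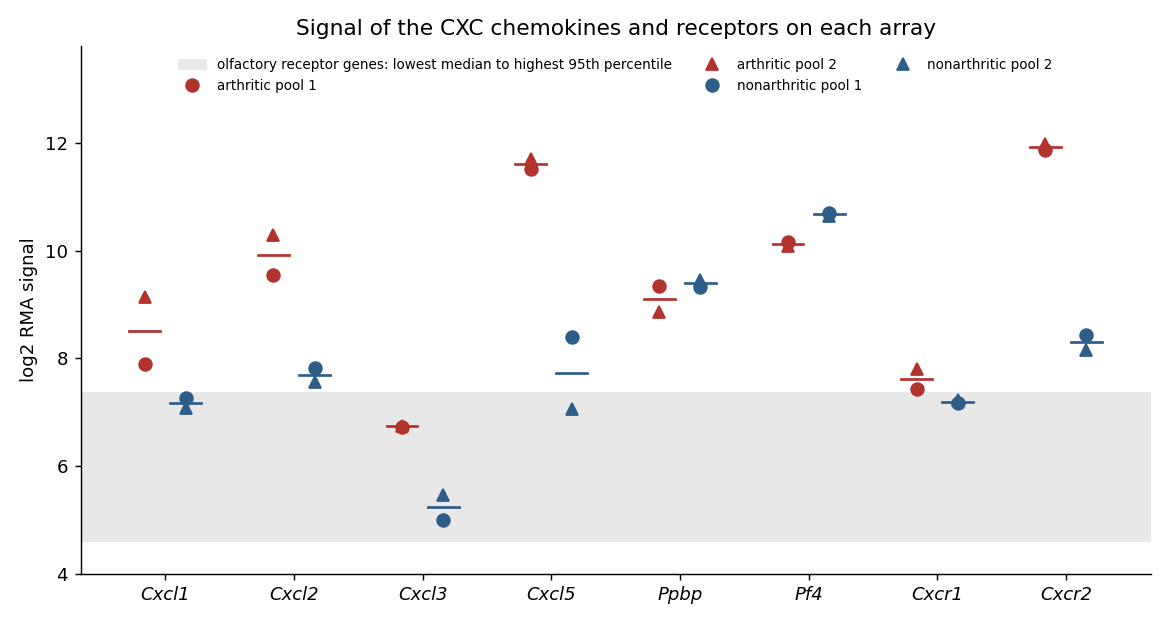
Log2 RMA signal (vertical axis) of each of the 8 genes on each of the 4 arrays; circles are pool 1, triangles pool 2, short lines group means, and the grey band runs from the lowest array median of olfactory receptor genes (4.60) to their highest 95th percentile (7.36). Arthritic pools stand clear of nonarthritic pools for Cxcl2, Cxcl5 and Cxcr2, Ppbp overlaps, and Cxcl3 lies within the band in both groups; heights are not comparable between genes.

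Cxcl5 encodes the chemokine also called LIX, and it had the highest fold change of the 8 genes. Its log2 signal was 11.51 and 11.70 in arthritic pools 1 and 2, against 8.40 and 7.06 in nonarthritic pools 1 and 2. The arthritic pools lay close together while the nonarthritic pools stood 1.34 apart, and 1.15% of all genes were at least 2-fold apart between those pools. The log2 fold change was 3.88 ± 0.37 (SE; 95% confidence interval 3.02 to 4.73; limma adjusted p = 0.000561), and 0.122% of all genes were at least 8-fold higher in arthritic synovium. Nonarthritic pool 2 read below the 95th percentile of 1105 olfactory receptor genes on its array (7.36), taken here as a guide to background, so the fold change may understate the difference. Leaving out nonarthritic pool 1 gave 4.55, and leaving out nonarthritic pool 2 gave 3.21. The call was lost without arthritic pool 1 (limma adjusted p = 0.0583) and without arthritic pool 2 (adjusted p = 0.0837).

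Cxcl1, Cxcl2 and Cxcl3 are the mouse relatives of the human GRO chemokines, which stimulated macrophages, fibroblasts and other cells release early in inflammation. Cxcl2 had log2 signals of 9.54 and 10.28 in arthritic pools 1 and 2 and 7.81 and 7.56 in nonarthritic pools 1 and 2. All arthritic signals were clear of the nonarthritic ones. Its log2 fold change was 2.23 ± 0.25 (SE; interval 1.65 to 2.80; limma adjusted p = 0.00104), or 4.68-fold. The call was lost without arthritic pool 2 (log2 fold change 1.86, limma adjusted p = 0.0568) and without nonarthritic pool 2 (2.10, adjusted p = 0.0802).

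Cxcl1, also known as KC, rose less evenly. Its log2 signal was 7.90 and 9.13 in arthritic pools 1 and 2, against 7.26 and 7.08 in nonarthritic pools 1 and 2. Arthritic pool 2 stood 1.23 above arthritic pool 1, and 0.649% of all genes were at least 2-fold apart between these pools. The log2 fold change was 1.35 ± 0.35 (SE; interval 0.55 to 2.14; limma adjusted p = 0.0359). Arthritic pool 2 decided its size, since it was 1.96 (limma adjusted p = 0.0354) without arthritic pool 1 and 0.73 (adjusted p = 0.158) without arthritic pool 2. Nonarthritic pool 2 read below the olfactory 95th percentile of its array, so this fold change may be understated too. The call was also lost without nonarthritic pool 1 (limma adjusted p = 0.185) and without nonarthritic pool 2 (adjusted p = 0.318).

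Cxcl3 had log2 signals of 6.73 and 6.75 in arthritic pools 1 and 2 and 5.0 and 5.46 in nonarthritic pools 1 and 2. The arthritic pools were nearly equal and both were higher. The log2 fold change was 1.51 ± 0.19 (SE; interval 1.07 to 1.95; limma adjusted p = 0.00187). The gene was dim throughout: the 95th percentile of the olfactory receptor genes was 6.77 and 6.94 on the arthritic arrays and 6.86 and 7.36 on the nonarthritic arrays. Cxcl3 was thus not shown to be above background in either group, and the fold change of a dim gene may understate the difference. The call was lost without arthritic pool 1 (limma adjusted p = 0.071) and without arthritic pool 2 (adjusted p = 0.0949).

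The DNA before the start sites of these 3 genes was read for motifs. NF-kB, a transcription factor that interleukin-1 and tumour necrosis factor activate, is known to switch on the GRO chemokine genes. RefSeq windows of build GRCm38.p6, from 250 bases before to 50 bases after the gene start, were at hand for 7 of the 8 genes, all but Cxcl5. The 10-base NF-kB consensus, searched on both strands, was found in Cxcl1, Cxcl2 and Cxcl3 and not in the windows of Ppbp, Pf4, Cxcr1 and Cxcr2, and 8.46% of all 32851 windows held it. The 150 bases before the start are shown for the 3 GRO genes, to let the shared run be seen, and for Pf4 from the same chromosome as a contrast, 5′ to 3′ along the gene with consensus matches in capitals.
Cxcl1, chr5:90891095-90891244, plus strand: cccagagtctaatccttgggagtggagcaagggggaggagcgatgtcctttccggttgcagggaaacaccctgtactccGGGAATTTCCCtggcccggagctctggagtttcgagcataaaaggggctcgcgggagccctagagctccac
Cxcl2, chr5:90903749-90903898, plus strand: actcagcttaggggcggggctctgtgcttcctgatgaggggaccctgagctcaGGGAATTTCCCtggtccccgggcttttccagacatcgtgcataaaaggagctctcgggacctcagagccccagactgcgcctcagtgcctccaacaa
Cxcl3, chr5:90785951-90786100, plus strand: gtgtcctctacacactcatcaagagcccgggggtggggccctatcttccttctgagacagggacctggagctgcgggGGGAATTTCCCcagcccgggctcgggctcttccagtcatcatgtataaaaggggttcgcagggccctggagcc
Pf4, chr5:90772285-90772434, plus strand: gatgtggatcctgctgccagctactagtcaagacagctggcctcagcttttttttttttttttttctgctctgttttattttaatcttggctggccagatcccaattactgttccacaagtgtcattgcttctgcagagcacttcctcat

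The same 10 bases, GGGAATTTCC, began 71 bases before the start of Cxcl1, 97 before that of Cxcl2 and 73 before that of Cxcl3. In each gene a match on the other strand, GGGAAATTCC, overlapped it with a shift of 1 base. The run GGGAATTTCC, singled out after the sequences were seen, was present on either strand in 29 of the 32851 windows (0.0883%). The 150-base stretches of the 3 GRO genes were 52.0% to 57.1% identical to each other in pairwise alignments. All other pairs among the genes with a window were 40.3% to 48.6% identical. Among the other letters searched on both strands, TGANTCA (AP-1) was found in Ppbp and in 7.81% of windows, TTGCNNAA (C/EBP) in Pf4 and in 10.8%, and TATAAA in Cxcl3 and Ppbp and in 13.6%. These are matches of letters, and binding was not measured.

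The other pair of ligands are known as platelet products. Ppbp, whose protein is cut into the neutrophil attractant NAP-2, had log2 signals of 9.34 and 8.86 in arthritic pools 1 and 2, against 9.32 and 9.46 in nonarthritic pools 1 and 2. Arthritic pool 1 lay between the nonarthritic pools, so the groups overlapped. The log2 fold change was -0.29 ± 0.20 (SE; interval -0.75 to 0.17; limma adjusted p = 0.389).

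Pf4, made by megakaryocytes and, in mice, also by some macrophages, had log2 signals of 10.16 and 10.08 in arthritic pools 1 and 2 and 10.69 and 10.65 in nonarthritic pools 1 and 2. The pools of each group lay within 0.08 of each other, and both arthritic pools were lower. It fell by 0.55 ± 0.15 (SE; interval -0.91 to -0.19) on the log2 scale, with an adjusted p of 0.0486 in limma. The call was lost with arrays centred on their medians (log2 fold change -0.46, limma adjusted p = 0.127) and with all probe sets tested (adjusted p = 0.0521). It was also lost with any 1 of the 4 pools left out (-0.59 to -0.51, limma adjusted p = 0.145 to 0.223).

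Markers of platelets and of resident macrophages were set beside Pf4. Of 13 measured platelet and megakaryocyte genes, 2 rose: Selp (log2 fold change 1.45 ± 0.17 SE), which endothelium makes too, and the transcription factor Nfe2 (0.91 ± 0.24). Nfe2 read above the olfactory 95th percentile in arthritic pool 2 alone, so its fold change may be understated. Another 2 fell (the ADP receptor P2ry12, -1.48 ± 0.16, and the thrombin receptor F2rl2, -0.71 ± 0.16), and 9 did not pass, with a list median of -0.14. Among those that did not pass, Gp5, Gp6, Tubb1 and Clec1b read below the same olfactory percentile in every pool. These genes were thus not shown to be above background, and a difference may be understated. The median and mean of the list include them. The integrin Itga2b, which defines the lineage, was at 0.18 ± 0.16 (limma adjusted p = 0.536) and the von Willebrand receptor subunit Gp9 at -0.44 ± 0.19 (adjusted p = 0.17). The mean log2 signal of the list was 7.78 and 7.85 in arthritic pools 1 and 2 and 7.83 and 7.79 in nonarthritic pools 1 and 2, so its groups overlapped. Its summed linear signal was 5901 and 5849 in arthritic pools and 5383 and 4833 in nonarthritic pools. Selp read 11.31 and 11.36 in arthritic pools 1 and 2, above every other gene of the list. It read 10.02 and 9.75 in nonarthritic pools 1 and 2. Selp thus weighed most on the arthritic sums, which do not measure platelets alone. With any 1 pool left out, fewer genes of the list were called, and fewer of all genes were called too.

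Of 13 resident macrophage genes, 5 fell and 1 rose, with a median of -0.27. The hyaluronan receptor Lyve1 (-2.59 ± 0.30 SE), the complement receptor Vsig4 (-2.07 ± 0.19) and the phosphatidylserine receptor Timd4 (-1.80 ± 0.15) fell most, and Siglec1, a lectin of macrophages, rose (0.87 ± 0.18). Timd4 read below the olfactory 95th percentile in arthritic pool 2. The mean log2 signal of the list was 10.35 and 10.20 in arthritic pools and 10.94 and 10.81 in nonarthritic pools. Its summed linear signal was 27771 and 24289 in arthritic pools and 39578 and 38466 in nonarthritic pools, without overlap, and its part in the lower Pf4 signal was not tested. In bulk tissue, fewer cells of a type and less RNA per cell cannot be told apart. The number of these genes that fell was 3 without arthritic pool 1, 1 without arthritic pool 2, 3 without nonarthritic pool 1 and 1 without nonarthritic pool 2.

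Cxcr2, the receptor of the ELR chemokines on neutrophils, rose 12.4-fold. Its log2 signal was 11.87 and 11.98 in arthritic pools 1 and 2, against 8.43 and 8.16 in nonarthritic pools 1 and 2. The pools of each group lay within 0.27 of each other, and the groups were far apart. The log2 fold change was 3.63 ± 0.17 (SE; interval 3.24 to 4.02; limma adjusted p = 7.77e-05), at position 11 among all rises. Of the 6 genes called, Cxcr2 alone kept its call with each pool left out in turn (3.50 to 3.77, limma adjusted p = 0.0192 to 0.0445).

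Cxcr1, which encodes the related receptor beside Cxcr2 on chromosome 1, had log2 signals of 7.42 and 7.80 in arthritic pools 1 and 2 and 7.16 and 7.23 in nonarthritic pools 1 and 2. Both arthritic pools were higher, but arthritic pool 1 lay closer to the nonarthritic pools than to arthritic pool 2. The log2 fold change was 0.42 ± 0.18 (SE; interval -0.0018 to 0.83; limma adjusted p = 0.174). The nonarthritic signals lay near the 95th percentile of olfactory receptor genes, so a difference may be understated here too.

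**Figure D2:**
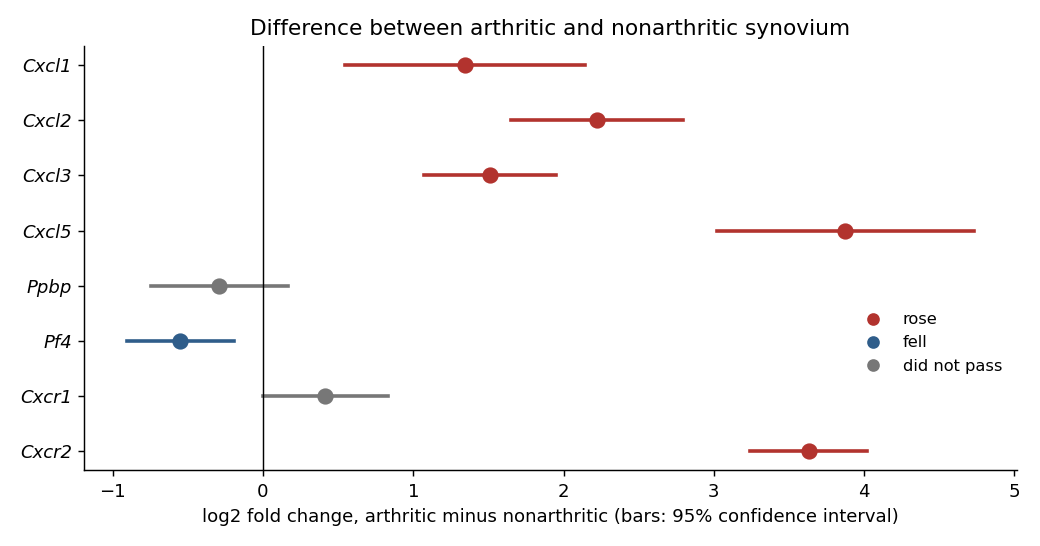
Log2 fold change of each of the 8 genes, arthritic minus nonarthritic (horizontal axis), as a point with its 95% confidence interval from limma as a bar; red genes rose, the blue gene fell and grey genes did not pass. Cxcl5 (3.88) and Cxcr2 (3.63) lie farthest right, then Cxcl2 (2.23), while Pf4 (-0.55) and Ppbp (-0.29) lie left of 0.

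Markers of neutrophils, the cells known to carry Cxcr2, rose in part. Of 24 measured markers, none of them among the 8 genes, 16 rose and 0 fell, with a median log2 fold change of 2.31. Mmp9, the gelatinase of neutrophil granules, was at 3.84 ± 0.32 (SE), Stfa2l1, a stefin with closely similar copies, at 3.75 ± 0.37, and S100a8, a calgranulin of neutrophil cytosol, at 3.68 ± 0.30. Stfa2l1 in both nonarthritic pools and S100a8 in nonarthritic pool 2 read below the olfactory 95th percentile, so their fold changes may be understated. The 8 markers that did not pass, named after their values were seen, encode granule proteins: Lcn2 (0.58), Ngp (0.58), Ltf (0.41), Camp (0.37), Prtn3 (0.24), Mpo (0.15), Elane (-0.10) and Ctsg (-0.30). Mmp9, which rose, encodes a granule protein too. Camp, Ngp, Mpo, Elane and Ctsg read below the olfactory 95th percentile in every pool, and Ltf in all but arthritic pool 1. These were thus not shown to be above background there, and a difference may be understated. The mean log2 signal of the list was 8.91 and 9.16 in arthritic pools and 7.28 and 7.00 in nonarthritic pools. Its summed linear signal was 23425 and 27359 in arthritic pools and 6029 and 4952 in nonarthritic pools, without overlap, and its part in the Cxcr2 signal was not tested. The number of markers that rose was 12 without arthritic pool 1, 4 without arthritic pool 2, 14 without nonarthritic pool 1 and 10 without nonarthritic pool 2.

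Receptors for other neutrophil attractants and growth signals were measured for 6 genes, of which 4 rose and 0 fell (median 0.82). Csf3r, the receptor of granulocyte colony-stimulating factor, was at 3.01 ± 0.26 (SE), the formyl peptide receptor Fpr2 at 2.15 ± 0.25 and the CC chemokine receptor Ccr1 at 0.86 ± 0.19, all as log2 fold changes. Csf3r and Fpr2 are also in the list of neutrophil markers, and Fpr2 read below the olfactory 95th percentile in nonarthritic pool 2. The number that rose was 2 without arthritic pool 1, 0 without arthritic pool 2, 2 without nonarthritic pool 1 and 1 without nonarthritic pool 2.

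In RefSeq gene order the 6 ligand genes lie in 1 run on chromosome 5: Cxcl5, Ppbp, Pf4, Cxcl3, Cxcl15, Cxcl1 and Cxcl2, in which Cxcl15, a chemokine of lung epithelium, is the 1 measured gene outside the 8. In that order the log2 fold changes were 3.88, -0.29, -0.55, 1.51, -0.24, 1.35 and 2.23. Ppbp and Pf4 thus lie between genes that rose. Cxcl15 read 5.02 and 4.97 in arthritic pools and 5.08 and 5.38 in nonarthritic pools, within the range of olfactory receptor genes. Of the 3 measured coding genes on each side, Rassf6 next to Cxcl5 fell (-0.86 ± 0.17 SE, limma adjusted p = 0.0123), at signals within the olfactory range, and the other 5 did not pass. Beside the receptors on chromosome 1, Tns1 fell (-0.76 ± 0.15) and Aamp rose (0.83 ± 0.17), and Arpc2, the neighbour of Cxcr1, was at 0.09 ± 0.16.

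**Figure D3:**
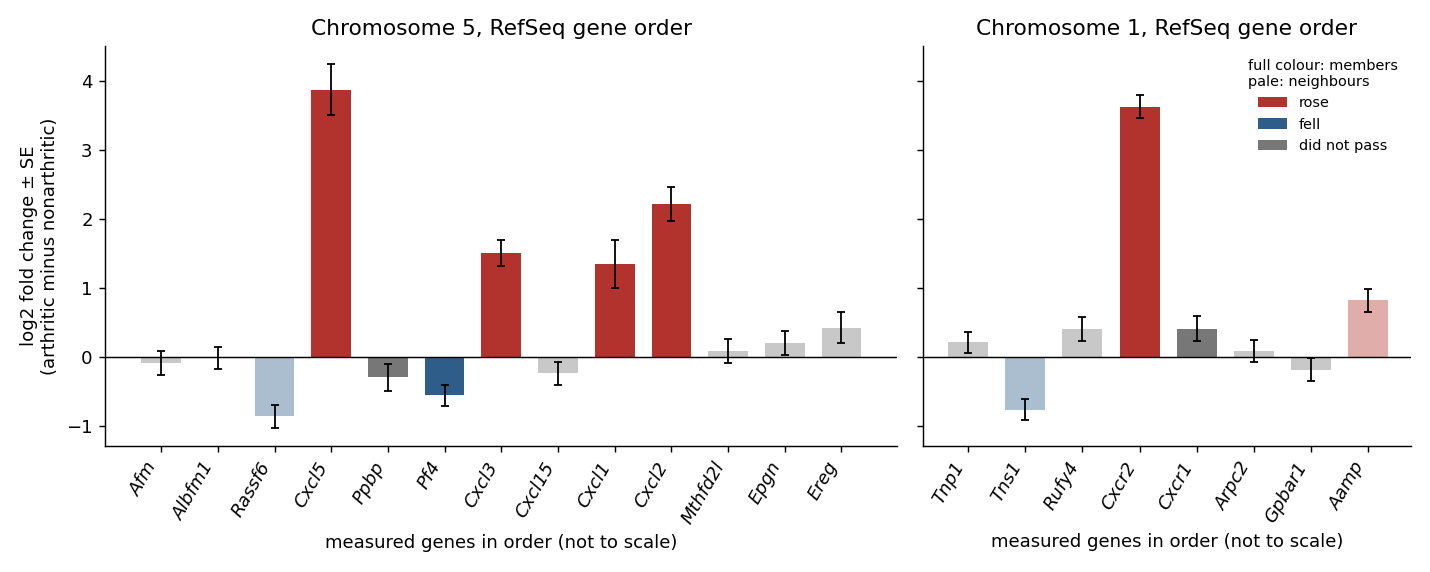
Log2 fold change ± SE (vertical axis, bars from 0), arthritic minus nonarthritic, of measured genes in RefSeq order on chromosome 5 (left) and chromosome 1 (right); full colours are the 8 genes, pale colours their neighbours, red rose, blue fell and grey did not pass. Cxcl5 (3.88) stands beside Ppbp (-0.29), and Cxcr2 (3.63) beside Cxcr1 (0.42).

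Cytokines that induce ELR chemokines, and their signalling genes, were measured for 17 genes, of which 9 rose and 0 fell (median 0.80, against 0.005 for all genes). Il1b, the interleukin-1 beta gene, had log2 signals of 11.80 and 12.34 in arthritic pools 1 and 2 and 9.37 and 7.10 in nonarthritic pools 1 and 2. The nonarthritic pools stood 2.27 apart, and the log2 fold change was 3.84 ± 0.60 (SE; limma adjusted p = 0.00492). Il1f9, the interleukin-36 gamma gene, was at 3.70 ± 0.23, and the interleukin-17 receptor chain Il17ra at 1.24 ± 0.21. The tumour necrosis factor gene Tnf was at 0.88 ± 0.16 and Nfkbiz, a nuclear partner of NF-kB, at 0.90 ± 0.20; all of these rose. Il1f9 in both nonarthritic pools and Il1b in nonarthritic pool 2 read below the olfactory 95th percentile, so their fold changes may be understated. Il17a did not pass (0.08 ± 0.16, limma adjusted p = 0.797), with signals of 6.16 and 6.23 in arthritic pools and 6.07 and 6.16 in nonarthritic pools, all within the olfactory range. With any 1 pool left out, fewer inducer genes passed, and fewer of all genes passed too.

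Factors that destabilise or protect chemokine transcripts were measured for 11 genes, of which 0 rose and 0 fell in limma, while 6 had an unadjusted p under 0.05 (median 0.41). The share of all genes with an unadjusted p under 0.05 was not counted, so the 6 cannot be judged against it. Zfp36, which encodes the decay factor tristetraprolin, was at 0.56 ± 0.23 (SE; limma adjusted p = 0.146). Zc3h12a, which encodes the nuclease Regnase-1, was at 0.65 ± 0.19 (limma adjusted p = 0.0596). The count that rose was 2 with arrays centred on their medians, 1 with a variance prior that follows intensity and 3 with dim genes left out.

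Atypical receptors take up chemokines without driving migration. Of 4 measured, 2 fell: Ackr2, a scavenger of CC chemokines (-1.15 ± 0.17 SE, limma adjusted p = 0.00348), and Ackr3, which binds Cxcl12 (-1.02 ± 0.20, adjusted p = 0.0129). Ackr1, the Duffy antigen of venules and red cells, binds ELR chemokines and read 9.69 and 9.07 in arthritic pools and 10.14 and 10.15 in nonarthritic pools. Both arthritic pools were lower, but its log2 fold change of -0.77 ± 0.22 missed the threshold (limma adjusted p = 0.0511). Ackr1 passed with quantile normalization again, with a variance prior that follows intensity and with dim genes left out, which made 3 receptors that fell. With any 1 pool left out, 0 of the 4 passed.

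Glycosaminoglycan chains on cell surfaces and in matrix hold chemokines in place. Of 14 measured genes, those of these chains and their carriers plus Tnfaip6, 8 rose and 1 fell (median 0.64). Tnfaip6, which is neither a chain nor a carrier gene, was among the rises (1.01 ± 0.19 SE). The glypican Gpc1 (1.19 ± 0.18 SE), the syndecan Sdc1 (1.16 ± 0.19) and the heparan sulphate polymerase Ext1 (1.07 ± 0.19) rose most, and the syndecan Sdc2 fell by 0.79 ± 0.18 on the log2 scale. The number called was 0 without arthritic pool 1, 0 without arthritic pool 2, 3 without nonarthritic pool 1 and 0 without nonarthritic pool 2.

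Proteases that trim or inactivate chemokines were measured for 11 genes, of which 3 rose and 2 fell (median 0.07). Mmp9 (3.84) and Mmp8 (3.29), both also neutrophil markers, and the plasminogen activator Plau (0.87) rose; Mmp8 read below the olfactory 95th percentile in both nonarthritic pools, so its value may be understated. Dpp4 (-0.94), a dipeptidyl peptidase that clips chemokine ends, and the macrophage elastase Mmp12 (-0.81) fell. The number called was 2 without arthritic pool 1, 1 without arthritic pool 2, 2 without nonarthritic pool 1 and 2 without nonarthritic pool 2.

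Genes that carry the signal inward from CXCR2 were measured for 23 genes, of which 9 rose and 1 fell (median 0.53). The kinase Fgr (2.03 ± 0.19 SE), the exchange factor Vav1 (1.74 ± 0.26) and the actin regulator Was (1.15 ± 0.21) rose most, and many leukocyte receptors share them. The beta-arrestin Arrb2, which uncouples the receptor from G proteins, rose by 0.995 ± 0.25 (limma adjusted p = 0.033). The receptor kinase Grk6 was at 0.53 ± 0.21 (limma adjusted p = 0.132) and the lipid kinase subunit Pik3cg at 0.15 ± 0.21 (adjusted p = 0.713). Rgs18, a regulator of G-protein signalling found in platelets and myeloid cells, fell by 1.97 ± 0.21 (limma adjusted p = 0.000842). The number that rose was 2 without arthritic pool 1, 0 without arthritic pool 2, 3 without nonarthritic pool 1 and 1 without nonarthritic pool 2.

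Most of the other CXC chemokines and receptors are known for guiding lymphocytes, monocytes or stromal cells, although Cxcl15 carries the ELR motif and neutrophils also use Cxcr4. Of 9 measured chemokines outside the 8 genes, Cxcl10 (1.57 ± 0.16 SE), an interferon-induced ligand of Cxcr3, and Cxcl16 (1.03 ± 0.18), the ligand of Cxcr6, rose, and 0 fell (median 0.00); Cxcl10 read below the olfactory 95th percentile in nonarthritic pool 2. The number that rose was 1 without arthritic pool 1, 0 without arthritic pool 2, 1 without nonarthritic pool 1 and 1 without nonarthritic pool 2. Of 4 other CXC receptors, Cxcr4, the receptor of Cxcl12, rose (1.74 ± 0.21, limma adjusted p = 0.00146), and Cxcr3, Cxcr5 and Cxcr6 did not pass (median 0.19). The Cxcr4 call was lost without arthritic pool 2 and without nonarthritic pool 2.

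**Figure D4:**
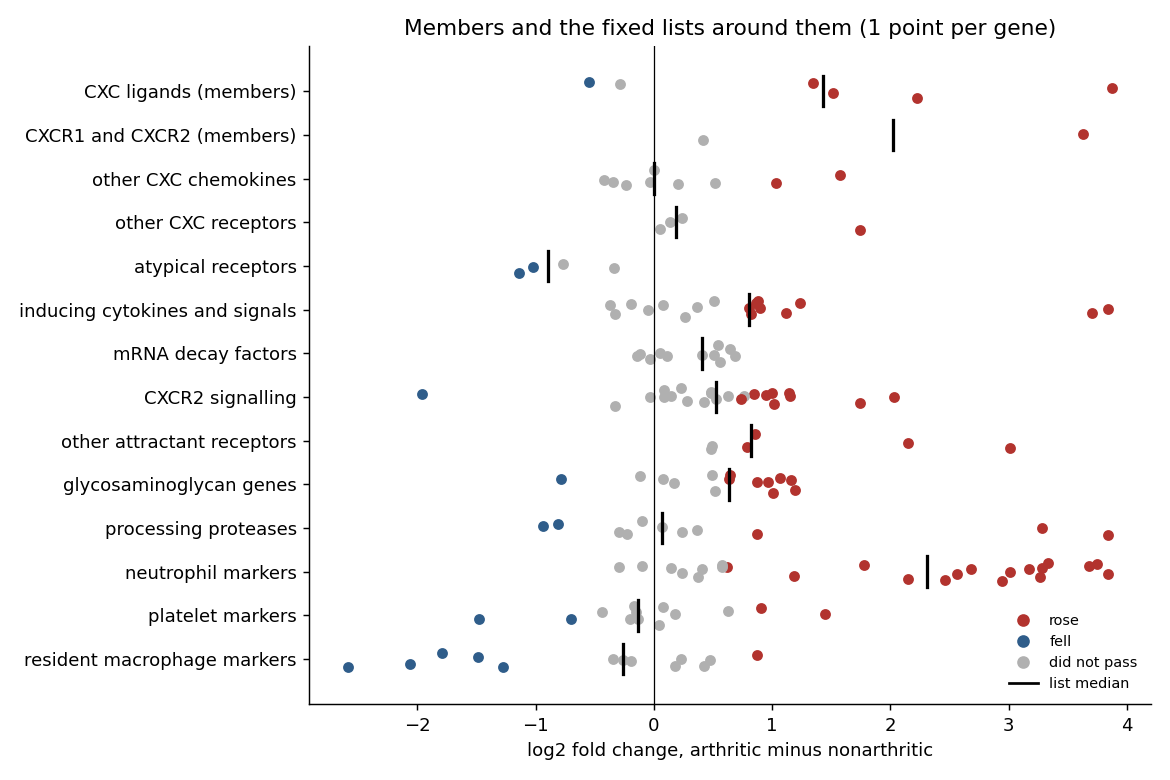
Log2 fold change, arthritic minus nonarthritic (horizontal axis), of every measured gene of the 8 and of the lists named on the vertical axis, 1 point a gene in each list. Red rose, blue fell, grey did not pass, and black ticks are list medians. The macrophage and monocyte, synovial fibroblast, endothelial, mast cell and skeletal muscle lists are not shown. Neutrophil markers (median 2.31) reach past Cxcr2 and almost as far right as Cxcl5, and the atypical receptors (median -0.89) lie left of 0.

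Skeletal muscle RNA also differed between the groups. All 8 muscle genes fell, with a mean log2 signal of 8.68 and 8.06 in arthritic pools and 11.30 and 11.73 in nonarthritic pools, and its part in the values of the 8 chemokine genes was not tested. The number of muscle genes that fell was 8 without arthritic pool 1, 5 without arthritic pool 2, 8 without nonarthritic pool 1 and 5 without nonarthritic pool 2. Prg4, the lubricin gene of the synovial lining, was bright in all 4 pools, at 13.27 and 13.52 in arthritic pools and 13.66 and 13.66 in nonarthritic pools (-0.27 ± 0.16 SE, limma adjusted p = 0.343).

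**Figure D5:**
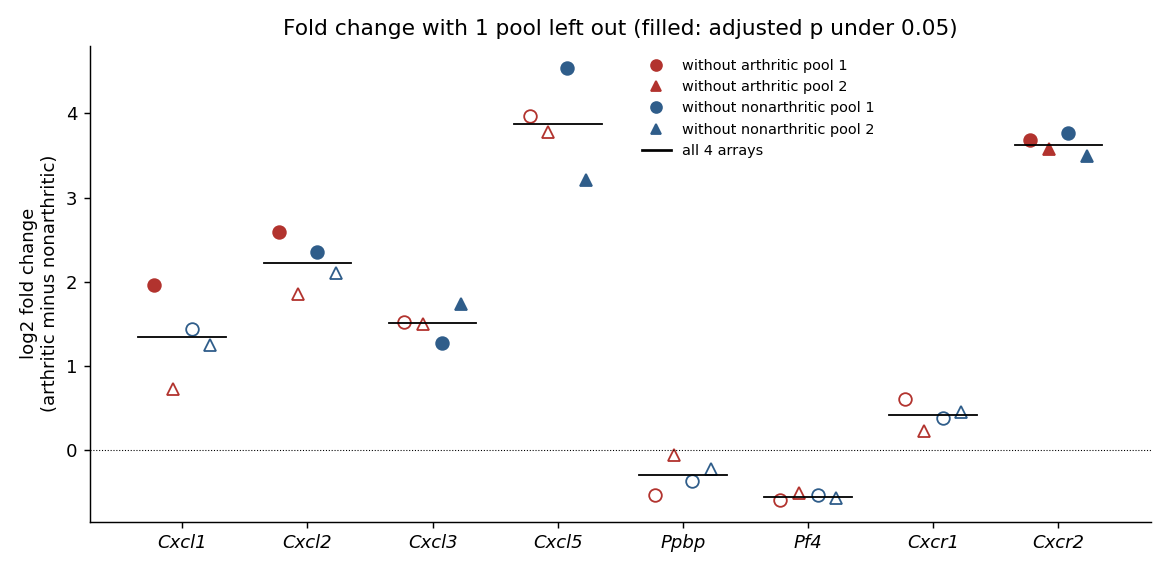
Log2 fold change of each of the 8 genes, arthritic minus nonarthritic (vertical axis), with 1 pool left out; filled symbols passed at an adjusted p under 0.05, open symbols did not, and black lines give the value from all 4 arrays. Cxcr2 stays filled in all 4 fits, Cxcl1 moves between 0.73 and 1.96 and Cxcl5 between 3.21 and 4.55, and none of the 8 changes sign.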

How the data were processed

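Total RNA from 4 synovial pools was read on Affymetrix MoGene 2.0 ST arrays. The values are RMA signals on the log2 scale as deposited by the authors; the submitters' processing notes name RMA with the Affymetrix Power Tools and Expression Console programs, without versions. That the scale is log2 was read from the range of the values. The table holds no detection calls, and the small number of arrays limits the precision. Of 41345 probe sets, 23521 with exactly 1 symbol were used, and the brightest was kept for each of 22180 genes. limma 3.58.1 in R 4.3.3 (lmFit, eBayes, 2-sided, no covariates) compared the groups, with Benjamini-Hochberg adjustment over all genes. Fold changes are arthritic minus nonarthritic.

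The 8 genes and all lists were chosen with earlier results of these data known. Besides the 8, genes were named from the 3 largest called rises and falls of each list, not all of which are given. The others are pathway genes listed by name, some genes that did not pass, gene-order neighbours and nearest profiles. Medians were counted over measured genes. The limma step was tested on simulated data.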

Additional observations from a re-analysis of the deposited data

How the results depend on the processing

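None of the 8 genes changed direction in any of the 11 alternatives run, and Cxcl3 could not be fitted where dim genes were left out, since it is among them. Same-numbered pools of the arthritic and nonarthritic groups deviated together with a correlation of 0.176 over 2 pairs, so the numbers are not shown to pair the samples. With the replicate number as a block, 2243 genes were called (1216 rose and 1027 fell), against 3402 without it, and 4 of the 8 genes, all of them rises; Cxcl1 (adjusted p = 0.103) and Pf4 (adjusted p = 0.0673) no longer passed in limma. With 1 pool left out, the lone pool being assumed to vary like the other group, 152 to 1221 genes were called and 1 to 4 of the 8. Centring arrays on their medians moved the median log2 fold change of all genes to 0.10 and the share of calls that were rises to 67.1%, against 56.8%; 5 of the 8 were then called, without Pf4. Other alternatives (quantile normalization again, an intensity trend in the prior, means of probe sets, all probe sets, dim genes left out) called 5 or 6 of the 8. Signals near the olfactory receptor range, as for Cxcl3 in all pools and for Cxcl1, Cxcl5 and Cxcr1 in nonarthritic pool 2, limit what can be said of size.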

Other observations

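Some marker genes of other cell types of the joint were called. Of 14 macrophage and monocyte genes, 7 rose and 0 fell (median log2 fold change 0.56, arthritic minus nonarthritic), led by the pore-forming Mpeg1 (1.91 ± 0.18 SE) and the Fc receptor Fcgr1 (1.60 ± 0.19). Of 14 synovial fibroblast genes, 6 rose and 3 fell (median 0.54): the cadherin Cdh11 was at 1.70 ± 0.17, while Clic5 (-2.48 ± 0.27) and Htra4 (-1.89 ± 0.24), genes of the lining, fell. Of 10 mast cell genes, 4 fell and 0 rose (median -0.56), among them the Fc receptor chain Ms4a2 (-1.64 ± 0.20), which read below the olfactory 95th percentile in both arthritic pools. Of 11 endothelial genes, 3 rose and 0 fell (median 0.40), namely the inducible selectins Selp (1.45 ± 0.17) and Sele (1.33 ± 0.31) and the growth factor receptor Kdr (0.73 ± 0.17), and 8 did not pass. With 1 pool left out the number called was 0 to 2 for the macrophage, 1 to 3 for the fibroblast, 0 to 2 for the mast cell and 0 to 1 for the endothelial list.

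Profiles over the 4 arrays, centred on each gene's mean, were compared by Euclidean distance as a description. Nearest to Cxcl5 were Mmp9 (distance 0.19), Saa3 (0.432) and Acod1 (0.454), and nearest to Cxcr2 were Car12 (0.277), Clec4e (0.318) and Il1f9 (0.325). Nearest to Cxcl2 were Ifitm6 (0.212), Sirpb1a (0.215) and Top2a (0.226), and nearest to Cxcl1, with its gap between arthritic pools, were Osm (0.131), which encodes the cytokine oncostatin M, Snora16a (0.201) and Snord35b (0.263). Nearest to Cxcl3 were 4833407H14Rik (0.156), Prokr2 (0.169) and Trem3 (0.201). Ppbp, Pf4 and Cxcr1, which varied less over the 4 arrays, had closer nearest profiles than the other members. Distances were 0.0166 for Uty from Ppbp, 0.0166 for Gbp4 from Pf4 and 0.0316 for Zmynd10 from Cxcr1.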
